A study of Mus musculus with 8 samples.

Results

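The genes described are 10 feedback regulators and transcriptional targets of fibroblast growth factor (FGF) signalling: the Sprouty genes Spry1, Spry2 and Spry4, the Sprouty-related genes Spred1 and Spred2, the phosphatase genes Dusp4 and Dusp6, and the ETS transcription factor genes Etv1, Etv4 and Etv5. They were taken from the array table as all probe sets annotated with exactly 1 of these symbols, which gave 27 probe sets of 9 genes, out of 45101 probe sets and 18193 genes in all. Etv1 has no value here, because its 3 probe sets also carry the symbol Gm5454. Of the 9 genes, 8 lay above the filter on low signal and were tested among 10916 genes; Dusp4, at a mean log2 signal of 6.03 against the filter of 6.40, was not.

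RNA came from NS5 cells, a mouse neural stem cell line that the labels assign to brain of E11.5 embryos, and was hybridized to 8 Affymetrix arrays. All 4 groups shared a plating period of 24 h in FGF2 and EGF on poly-ornithine and laminin and then 4 h without growth factors, so the TGF-beta1 groups had also met FGF2. For the next 48 h the FGF2 group received FGF2, the TGF-beta1 group received TGF-beta1, and the groups Ethanol and FGF2 and Ethanol and TGF-beta1 received the same factor together with ethanol at 400 mg/dl. Each growth factor dose is given in the labels as 10 ng/ul. Each group had 2 arrays. No group was held without a growth factor, so FGF2 and TGF-beta1 were compared with each other and neither with an untreated level. The sources used here do not tell whether the replicates were separate cultures, so p-values measure only the spread between these samples, which may be technical.

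FGF2 binds receptor tyrosine kinases that switch on RAS and then the kinases RAF, MEK and ERK, the pathway that sustains division and the undifferentiated state of cultured neural stem cells. ERK activity induces its own inhibitors: Sprouty and Spred proteins restrain the pathway upstream of or at RAF, and the Dusp phosphatases remove the activating phosphates from ERK itself. Etv1, Etv4 and Etv5, the PEA3 group of ETS factors, are activators transcribed in response to FGF signalling in many embryonic tissues, and levels of all these transcripts are commonly read as a gauge of FGF and ERK output.

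Precision is limited throughout by the number of arrays and by the spread within groups, which the fit pooled over all 8 arrays. The 2% trimmed mean of the signals was 500 on every array. Of 12 neural stem and radial glia markers 10 were above the signal filter, with a summed signal of 69705 to 127235 over the 8 arrays. None of the 7 endothelial markers and 1 of 8 microglial markers passed the filter, with summed signals of 99 to 346 and 157 to 404, whereas 7 of 12 neuronal, 8 of 8 astrocyte, 2 of 8 oligodendrocyte and 4 of 8 mesenchymal markers passed. The TGF-beta response gene Fn1 (fibronectin) checked the labels. The FGF2 arrays gave a signal of 120 and 139, the TGF-beta1 arrays 3015 and 4109. In Ethanol and FGF2 it was 6828 on replicate 1 and 116 on replicate 2, and in Ethanol and TGF-beta1 it was 124 on replicate 1 and 8226 on replicate 2. Both ethanol arrays labelled replicate 1 thus stood with the other growth factor. Every array was kept in its labelled group. Comparisons that use the ethanol groups are given as labelled, and values without both of these arrays, the doubted arrays, stand beside them. In the fit over all 8 arrays, the doubted arrays also entered the SE and p-values of TGF-beta1 against FGF2 without ethanol.

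Promoter sequence was available for 7 of the 10 genes (Spry1, Spry2, Spred1, Spred2, Dusp6, Etv1 and Etv5) as 9 windows of the 250 bases before an annotated start (RefSeq, GRCm38.p6). The windows were searched on both strands for CGGAA, the core of many ETS binding sites. Dusp6 held 3 matches, Spred2 held 2 and Spred1 held 1, and these 3 windows are shown as those that held the motif. Spry1, Spry2 and Etv5, whose signals were also lower in TGF-beta1 without overlap, held 0 matches. Capitals mark CGGAA or its reverse complement TTCCG. The windows are chr10:99262981-99263230, chr11:19924192-19924441 and chr2:117120821-117121070, each on the plus strand and read 5′ to 3′.
Dusp6: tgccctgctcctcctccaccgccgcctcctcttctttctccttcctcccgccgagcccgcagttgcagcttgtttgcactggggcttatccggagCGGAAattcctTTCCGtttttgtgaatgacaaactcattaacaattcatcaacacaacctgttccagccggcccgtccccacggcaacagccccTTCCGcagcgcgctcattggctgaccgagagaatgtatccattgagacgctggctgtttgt
Spred2: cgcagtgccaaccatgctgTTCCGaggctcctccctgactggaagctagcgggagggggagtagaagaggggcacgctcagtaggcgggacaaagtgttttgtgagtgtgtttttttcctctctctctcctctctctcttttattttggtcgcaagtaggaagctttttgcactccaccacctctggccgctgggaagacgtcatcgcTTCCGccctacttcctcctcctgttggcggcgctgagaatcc
Spred1: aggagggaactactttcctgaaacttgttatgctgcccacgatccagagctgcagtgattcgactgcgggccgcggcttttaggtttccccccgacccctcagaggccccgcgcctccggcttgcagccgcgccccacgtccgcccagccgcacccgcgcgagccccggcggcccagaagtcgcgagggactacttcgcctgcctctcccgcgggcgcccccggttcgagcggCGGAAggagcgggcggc

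CGGAA was found in 3 of the 9 windows and in 25.2% of 32851 promoter windows of the same length, and 3 or more matches, as in Dusp6, in 2.12%. The shorter core GGAA, which lies within CGGAA, was in 8 of 9 windows and in 93.4% of all. CCGGAA, which contains CGGAA, was in 0 of 9 and 3952 of 32851 windows, the AP-1 site TGANTCA in 0 of 9 and 6.75%, the cAMP response element TGACGTCA in 0 of 9 and 1.55%, the CArG box in 0 of 9 and 1.47%, and the Smad box GTCTAGAC in 0 of 9 and 0.167%. A match describes letters in a window and not a bound site.

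The first comparison asked how the level of these transcripts depended on the growth factor without ethanol. Of the 8 tested genes, 7 had both TGF-beta1 arrays below both FGF2 arrays, and Etv4 did not. Such an order, lower without overlap, was met by 15.8% of the 10916 genes tested. The median log2 fold change of the 8 genes was −0.84 and that of all genes was 0.02. None of the 8 passed an adjusted p of 0.05 by limma, nor did any of the 10916 genes (0.0%), and the 8 adjusted p-values ran from 0.980 to 0.996. At an unadjusted p of 0.05, Spry4, Etv5 and Spred2 were lower, which is 3 of 8 against 1.74% of all genes lower at that level. In RNA of whole cultures, fewer cells of a type and less RNA per cell cannot be told apart.

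**Figure D1:**
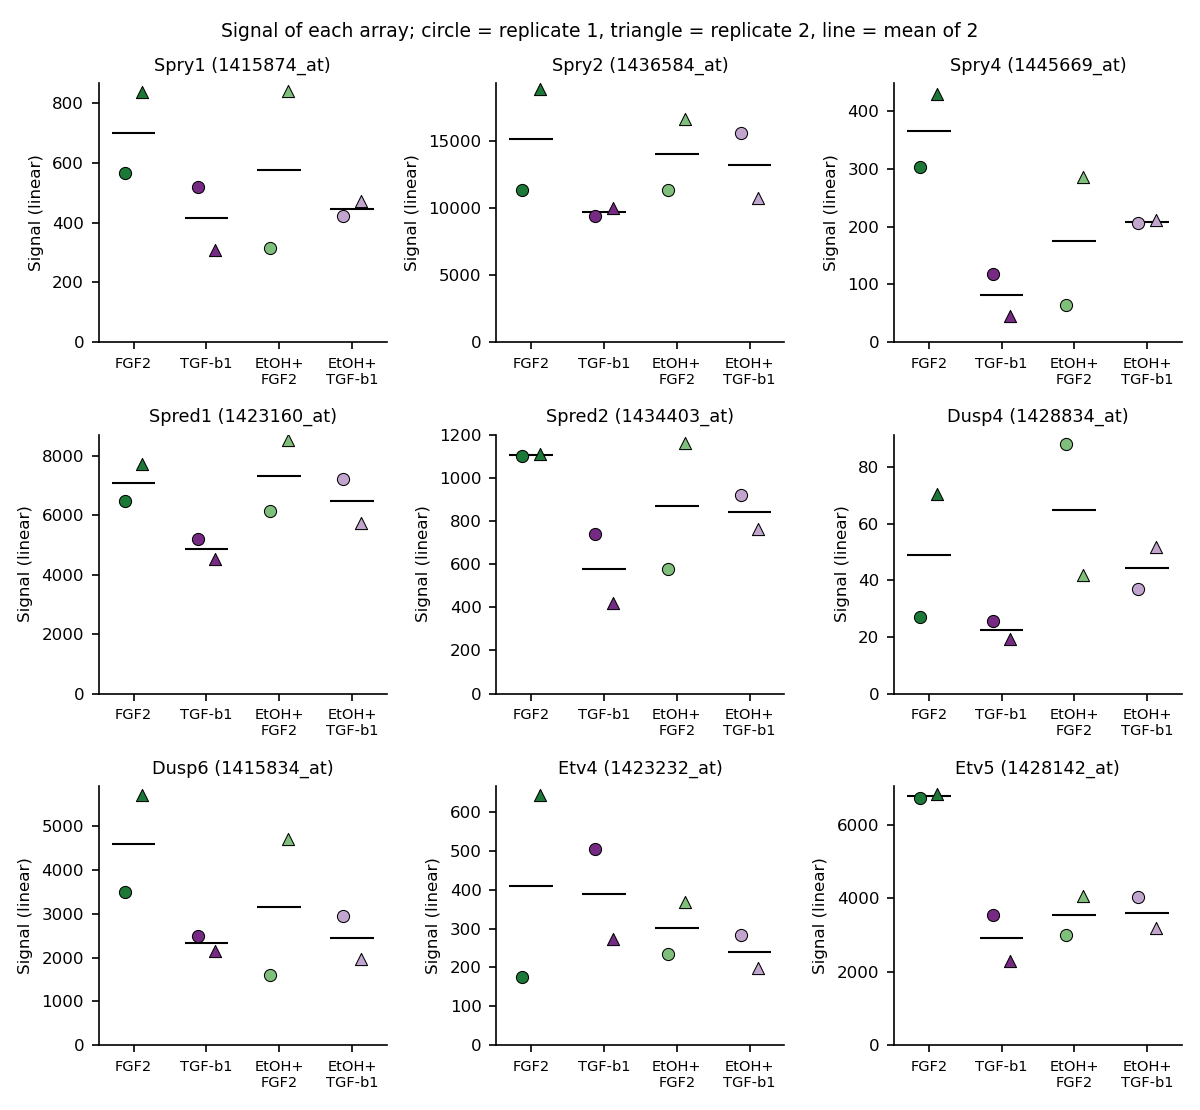
Linear signal on each of the 8 arrays for the representative probe set of each of 9 genes, by group (TGF-b1, TGF-beta1; EtOH, ethanol), with circles for replicate 1, triangles for replicate 2 and a line at the mean of 2. Both TGF-beta1 arrays lie below both FGF2 arrays in every panel but that of Etv4, and the Ethanol and FGF2 arrays lie far apart for Spry1, Spry4, Spred2 and Dusp6.

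Among the Sprouty genes, whose products block growth factor signals on their way to ERK, Spry4 had the widest span. Spry4 (chromosome 18 from 38586247 to 38601347, GRCm38.p6) had signals of 304 and 429.7 in FGF2 against 118 and 44.7 in TGF-beta1. Both FGF2 arrays were thus well above both TGF-beta1 arrays, with a mean ± SD of 367 ± 89.2 and 81.4 ± 52.0 (n = 2 each). Spry4 differed by −1.97 ± 0.59 on the log2 scale (estimate ± SE; 95% confidence interval −3.30 to −0.64), 3.91-fold lower, with an adjusted p of 0.980 by limma. The array at 44.7 was near the bottom of the scale, and the estimate was −1.06 with the mean of all Spry4 probe sets and −2.50 to −1.44 with 1 array left out. A second Spry4 probe set above the filter had signals of 251 and 412 in FGF2 against 132 and 96.5 in TGF-beta1, again with no overlap, and an estimate of −1.34.

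Spry2 (chromosome 14 from 105891947 to 105896819), which restrains receptor signalling to RAS, gave signals of 11386 and 18875 in FGF2 against 9396 and 10003 in TGF-beta1. The groups did not overlap, although FGF2 replicate 1 was much closer to the TGF-beta1 arrays than to its own replicate. The log2 fold change was −0.60 ± 0.32 (95% interval −1.33 to 0.14, adjusted p = 0.980), and its other probe set gave −0.79. Without FGF2 replicate 2 it was −0.23, and without FGF2 replicate 1 it was −0.96. Spry1 (chromosome 3 from 37639947 to 37644599), the family member known for limiting signalling by the receptor RET in the kidney, had signals of 565 and 837 in FGF2 against 519.75 and 309.65 in TGF-beta1. The gap between the nearest arrays of the groups was small beside the spread within either, and the log2 fold change was −0.74 ± 0.45 (−1.76 to 0.28, adjusted p = 0.982). It was −0.47 without FGF2 replicate 2, and −1.10 without replicate 1 and −0.39 without replicate 2 of TGF-beta1.

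Spred1 and Spred2 encode membrane proteins that bring the RAS inactivator neurofibromin to the membrane. Spred2 (chromosome 11 from 19924442 to 20024026) had signals of 1102 and 1113 in FGF2 against 740.1 and 419 in TGF-beta1. The FGF2 arrays were almost equal, and both exceeded both TGF-beta1 arrays. The log2 fold change was −0.96 ± 0.37 (−1.81 to −0.12, adjusted p = 0.980), and −0.57 without TGF-beta1 replicate 2. The other Spred2 probe sets above the filter gave −1.15, without overlap, and −0.46, with overlap. Spred1 (chromosome 2 from 117121071 to 117182279) had signals of 6475 and 7723 in FGF2 against 5186 and 4515 in TGF-beta1. All 7 Spred1 probe sets above the filter were lower without overlap, with log2 values between −0.53 and −0.69. They share 1 gene and are not replicates of the condition. For the representative probe set the log2 fold change was −0.55 ± 0.25 (−1.11 to 0.02, adjusted p = 0.980).

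Of the phosphatases, Dusp6 acts on ERK in the cytoplasm and Dusp4 in the nucleus. Dusp6 (chromosome 10 from 99263231 to 99267489) had signals of 3492 and 5719 in FGF2 against 2488 and 2156 in TGF-beta1. The groups did not overlap, with means of 4606 ± 1575 and 2322 ± 235. The log2 fold change was −0.94 ± 0.47 (−2.00 to 0.12, adjusted p = 0.980), 1.92-fold lower, and −0.59 without FGF2 replicate 2. Dusp4 (chromosome 8 from 34807610 to 34819894) had signals of 27.2 and 70.4 in FGF2 against 25.5 and 19.2 in TGF-beta1. It lay under the signal filter and was not tested, and its lower FGF2 array was close to its higher TGF-beta1 array.

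Of the transcription factors, Etv5 was lower without overlap and Etv4 was not; the difference between them was not tested. Etv5 (chromosome 16 from 22381313 to 22439570), a factor needed for renewal of germline stem cells and active in branching organs, had signals of 6742 and 6832 in FGF2 against 3553 and 2291 in TGF-beta1. Both FGF2 arrays stood far above both TGF-beta1 arrays, at 6787 ± 64.0 and 2922 ± 892. The log2 fold change was −1.24 ± 0.28 (−1.87 to −0.62), 2.37-fold lower, with an unadjusted p of 0.0015, the lowest of the 8 genes, and an adjusted p of 0.980 by limma. The 2 other Etv5 probe sets gave −1.20 and −1.02, both without overlap.

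Etv4 (chromosome 11 from 101769747 to 101785310), whose product shares target sites with Etv5, had signals of 174 and 644 in FGF2 against 504 and 272 in TGF-beta1. The FGF2 arrays held both the lowest and the highest value, and the log2 fold change was 0.12 ± 0.56 (−1.14 to 1.39). It was −0.76 without replicate 1 and 1.00 without replicate 2 of FGF2, and −0.30 without replicate 1 and 0.54 without replicate 2 of TGF-beta1. Its second probe set gave signals of 91.0 and 384 in FGF2 against 119 and 112 in TGF-beta1, with overlap and an estimate of −0.63. The 2 Etv4 probe sets therefore disagreed in direction, and neither separated the growth factors.

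**Figure D2:**
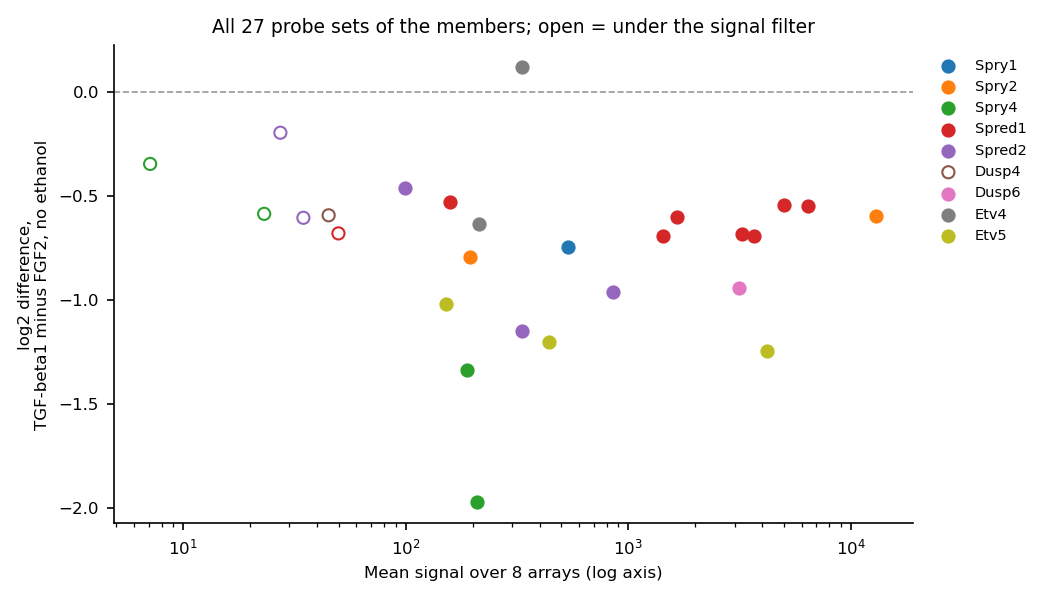
Log2 difference between TGF-beta1 and FGF2 without ethanol (vertical axis) against the mean signal over 8 arrays (log axis) for each of the 27 probe sets of the 9 genes, coloured by gene, with open circles under the signal filter. Of the 21 probe sets above the filter 20 lie below 0, and the exception is 1 of the 2 Etv4 probe sets.

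Over all probe sets of these genes, 21 were above the filter as applied to single probe sets. Of these, 18 were lower in TGF-beta1 without overlap and 0 were higher without overlap, where 16.9% of all 20967 probe sets above that filter were lower without overlap. Probe sets of 1 gene share its transcript, so the 18 describe 7 genes, all of the 8 but Etv4, and not 18 separate observations. Spred1 alone gave 7 of the 18. When the fit was restricted to the 4 arrays without ethanol, a choice made after seeing the data, 5 genes of 10916 passed the adjusted threshold (0.0458%). None was a Sprouty, Spred, Dusp or Etv gene. The lowest adjusted p by limma among the 8 were 0.366 for Etv5 and 0.398 for Spry4. An unadjusted p under 0.05 was reached by 5 of the 8 and by 776 of all genes. In that fit the SE of Dusp6 was 0.28 in place of 0.47, and that of Spry4 0.46 in place of 0.59. Of the 8, only Etv4 had a larger SE, 0.61 in place of 0.56.

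The replicates within a group also differed in a way most of these genes shared. FGF2 replicate 2 was above replicate 1 for 8 of the 8 tested genes (49.0% of all genes), by between 0.01 for Spred2 and 1.76 for Etv4 on the log2 scale. TGF-beta1 replicate 2 was below replicate 1 for 7 of the 8, all but Spry2 (48.6% of all genes). Set against their mean over the arrays without ethanol, the median of the 8 genes was 0.13 and 0.65 on the FGF2 arrays and −0.24 and −0.65 on the TGF-beta1 arrays, while the median of all genes stayed between −0.01 and 0.03. The summed signal of the 14 tested G2/M and mitosis genes also varied among these arrays, from 13136 to 34223 in FGF2 and from 42283 to 43743 in TGF-beta1. Summed neuronal markers were 8445 to 12059 in FGF2 and 5730 to 7437 in TGF-beta1, but most of that signal was Map2. Of the 7 tested, 5 were below 0, and Syt1 (0.13) and Elavl3 (0.16) were above. The lowest estimates were those of Dcx (−2.30 ± 0.52) and Tubb3 (−1.14 ± 0.55). Dcx had signals of 314 and 742 in FGF2 against 56.5 and 109 in TGF-beta1. Summed oligodendrocyte markers were 7734 to 9836 and 5101 to 7560, nearly all of it Cnp. The part of mitotic, neuronal or oligodendrocyte transcripts in the values of the feedback genes was not tested.

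Other genes of the pathway were counted from lists written by hand with earlier results of these data known. Among 17 tested of 20 other ERK feedback and Dusp genes, 10 estimates were below 0, the median was −0.06, and 2 genes were lower and 1 higher without overlap, where 15.8% of all genes were lower and 20.4% higher. The member of that list with the highest signal was Peli1, a ubiquitin ligase gene, at −0.49 ± 0.28. Among 22 tested of 25 other ERK response genes, 9 were below 0, with a median of 0.03 and 5 lower and 4 higher without overlap. The member of this list with the highest signal was Egr1, at 1.02 ± 0.59, above 0 where most feedback genes were below. Egr1 signals overlapped, at 10729 and 2817 in FGF2 against 7706 and 16157 in TGF-beta1. The 17 tested of 26 RAS to ERK cascade genes, the kinases and adaptors that carry the signal, had 15 estimates below 0, a median of −0.22, and 8 lower and 0 higher without overlap. Its gene of highest signal was Pebp1, which encodes a RAF inhibitor, at 0.14 ± 0.36. Of the 6 tested of 9 FGF and EGF receptor genes, 3 were below 0, with a median of 0.02 and 1 lower and 1 higher without overlap. Egfr, the receptor of the EGF used in plating, had signals of 12796 and 17417 in FGF2 against 8792 and 11289 in TGF-beta1, without overlap, and an estimate of −0.58 ± 0.28. In each of these lists 0 genes rose and 0 fell by limma after adjustment, and 0, 1, 0 and 0 had an unadjusted p under 0.05.

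**Figure D3:**
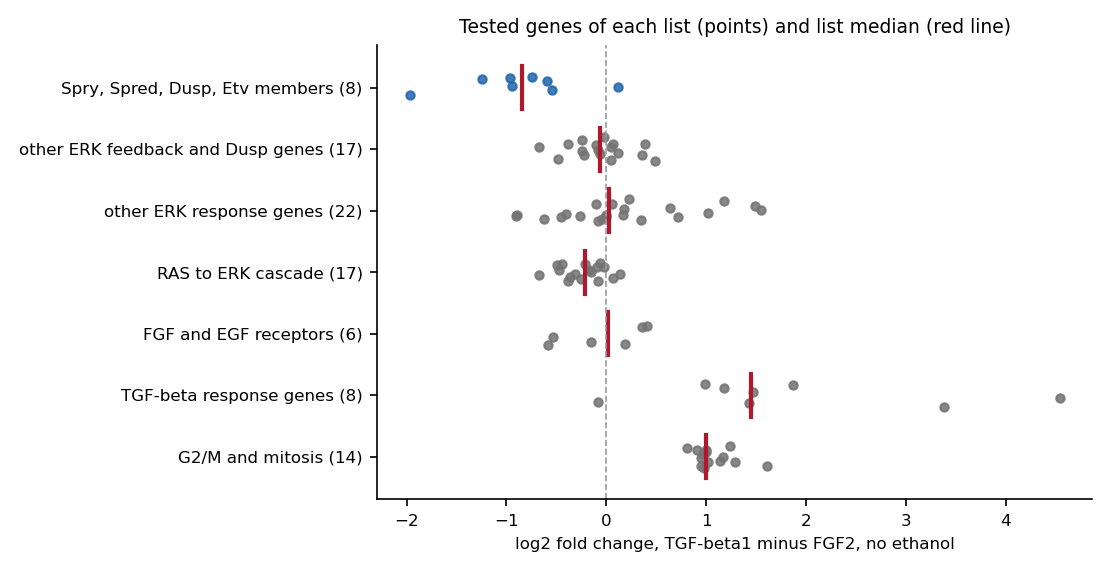
Log2 fold change between TGF-beta1 and FGF2 without ethanol for each tested gene (points) of the feedback genes and of 6 other lists, with the number of tested genes in brackets and the list median as a red line. The feedback genes have a median of −0.84, the ERK feedback, ERK response and RAS to ERK cascade lists have −0.06, 0.03 and −0.22, with 15 of 17 cascade genes below 0, and the TGF-beta response genes have 1.45.

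For comparison on the same arrays, the 8 tested TGF-beta response genes had 7 higher and 0 lower without overlap and a median of 1.45, and the 14 tested G2/M and mitosis genes had 13 higher and a median of 1.00, against 20.4% of all genes higher. None of these passed the adjusted threshold either, with all 8 arrays in the fit.

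The second comparison took the growth factors in the presence of ethanol. As labelled, 0 of the 8 feedback genes were lower (19.3% of all genes) and 0 were higher (12.4%) without overlap, and 0 passed the adjusted threshold, as did 0 of all genes (0.0%). None had an unadjusted p under 0.05, against 288 of all genes. The estimates ran from −0.29 ± 0.56 for Etv4 to 0.49 ± 0.59 for Spry4, with a median of −0.13. The arrays of an ethanol group lay far apart: replicate 1 of Ethanol and FGF2 was below its replicate 2 for 8 of 8 genes (47.9% of all genes).

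Dusp6 had signals of 1605 and 4716 in Ethanol and FGF2 and 2945 and 1969 in Ethanol and TGF-beta1. The lowest and the highest of these 4 values both came from Ethanol and FGF2, and the log2 fold change was −0.19 ± 0.47. Spry1 showed the same arrangement, at 315 and 842 against 422 and 471. Spred2 had 576 and 1164 in Ethanol and FGF2 and 921 and 763 in Ethanol and TGF-beta1, with replicate 1 again the lowest array. In Ethanol and TGF-beta1, replicate 1 was above replicate 2 for 6 of the 8 genes (49.4% of all genes), the exceptions being Spry1 and Spry4.

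Without the doubted arrays, 1 array was left in each ethanol group, and its spread was taken to be that of the other groups. All 8 estimates of TGF-beta1 against FGF2 with ethanol were then below 0, from −1.25 for Dusp6 to −0.34 for Etv5. None passed the adjusted threshold, with a lowest adjusted p of 0.753, while 2 genes of all did.

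Ethanol within FGF2 was the third comparison. Etv5 had signals of 6742 and 6832 in FGF2 and 3006 and 4054 in Ethanol and FGF2, so both ethanol arrays were below both others. Its log2 fold change was −0.95 ± 0.28, with an unadjusted p of 0.00722 and an adjusted p of 0.351 by limma. Spry4, at 64.95 and 286 with ethanol, was below both FGF2 arrays as well, at −1.22 ± 0.59 (adjusted p = 0.645). These were 2 of 8 genes lower without overlap, against 12.8% of all genes. The other estimates ran from −0.69 ± 0.47 for Dusp6 to 0.03 ± 0.25 for Spred1. None of the 8 passed the adjusted threshold, nor did any of all genes (0.0%), and 1 of the 8 and 906 of all genes had an unadjusted p under 0.05. Without the doubted arrays, Etv5 was at −0.74, Spry4 at −0.32 and Dusp6 at 0.08, on the 1 remaining array of Ethanol and FGF2, and 6 of the 8 estimates were above 0 (median 0.09).

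Within TGF-beta1, 4 of the 8 genes were higher with ethanol without overlap (Spry2, Spry4, Spred1 and Spred2), against 22.2% of all genes. Spry4 had signals of 118 and 44.7 in TGF-beta1 and 206 and 212 in Ethanol and TGF-beta1. The ethanol arrays agreed closely and exceeded both others, with a log2 fold change of 1.24 ± 0.59 (adjusted p = 0.563 by limma). The array at 206 was a doubted array, and the lowest Spry4 estimate over the alternative settings was 0.23. The second Spry4 probe set overlapped, at 132 and 96.5 in TGF-beta1 against 186 and 115 with ethanol. So did that of Spry2, at 152 and 134.5 against 270 and 112. Every Spred1 probe set above the filter was higher without overlap, while the other Spred2 probe sets above it differed in this. Spred2 was at 0.57 ± 0.37, Spry2 at 0.42 ± 0.32 and Spred1 at 0.41 ± 0.25. Etv4 had the lowest estimate, −0.60 ± 0.56. Its second probe set went the other way, without overlap, at 119 and 112 in TGF-beta1 against 273 and 194 with ethanol. None of the 8 passed the adjusted threshold and none had an unadjusted p under 0.05, where 130 genes of all (1.19%) passed the first and 1035 the second. Without the doubted arrays Spry4 was at 1.26, Spred2 at 0.44, Spred1 at 0.25 and Spry2 at 0.15, and 0 of all genes passed. In the same comparison 13 of the 14 tested G2/M and mitosis genes fell, Ccnb2, Birc5, Prc1 and Tpx2 by the most (−3.92, −3.83, −3.71 and −3.60). All 7 tested neuronal markers were above 0 (median 0.74), and 1 of them rose, the microtubule-binding protein gene Dcx (2.70 ± 0.52, adjusted p = 0.0488). The part of these transcripts in the values of the feedback genes was not tested.

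**Figure D4:**
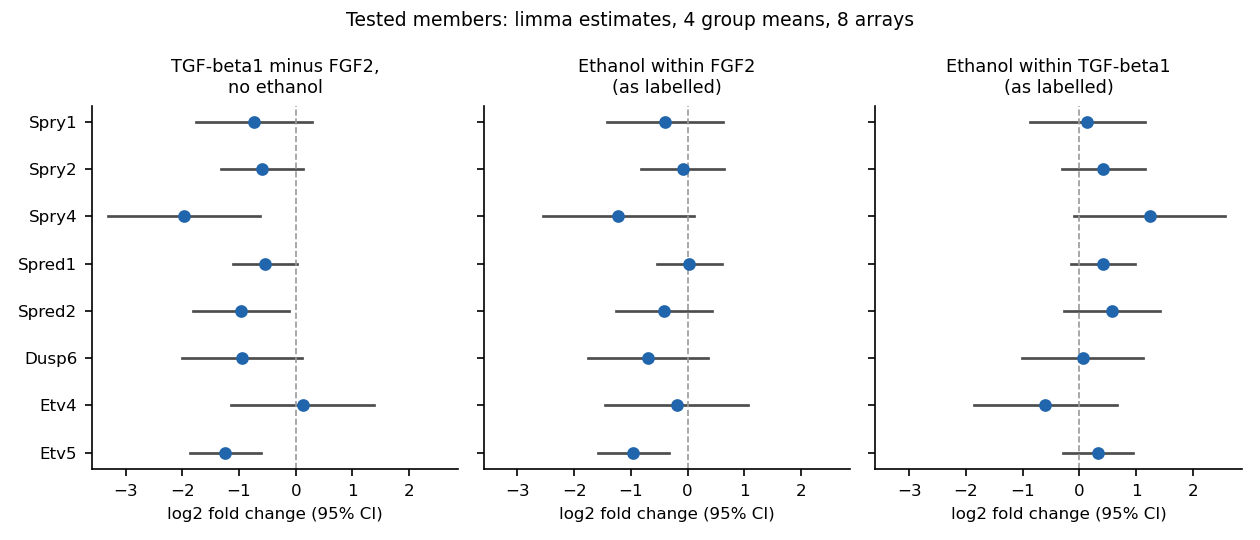
Log2 fold changes by limma with 95% confidence intervals for the 8 tested genes, from left to right for TGF-beta1 against FGF2 without ethanol, ethanol within FGF2 and ethanol within TGF-beta1, as labelled. Only the intervals of Spry4, Spred2 and Etv5 in the first panel and of Etv5 in the second exclude 0, before adjustment over genes. The spread behind every interval was pooled over all 8 arrays.

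The difference between both ethanol estimates, the interaction, was above 0 for 7 of the 8 genes. It was 2.46 ± 0.83 for Spry4 and 1.28 ± 0.39 for Etv5, the 2 genes with an unadjusted p under 0.05 (484 of all genes). No gene of the 8 or of all (0.0%) passed after adjustment, and the adjusted p of the 8 ran from 0.831 to 0.925. This contrast subtracts the same FGF2 and TGF-beta1 arrays that give the first comparison, so both draw on those values. The arrays without ethanol held the extremes of Etv5 and Spry4, and the ethanol arrays of both groups lay between them on average: Etv5 means were 6787 ± 64.0 in FGF2, 3530.1 ± 741 and 3610.2 ± 594 in the ethanol groups, and 2922 ± 892 in TGF-beta1. For Spry4 they were 367 ± 89.2, 175 ± 156, 209 ± 4.73 and 81.4 ± 52.0 in the same order. Without the doubted arrays the interaction was above 0 for 3 of the 8 genes, Spry4 (1.58), Etv5 (0.90) and Spred2 (0.36). It was below 0 for the other 5, down to −0.95 for Etv4, with a median of −0.03, so the count of 7 of 8 rests on those arrays.

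Averaged over both growth factors, the ethanol estimates of these genes lay on both sides of 0. They ran from −0.40 ± 0.39 for Etv4 to 0.22 ± 0.18 for Spred1, with a median of −0.06 against 0.03 for all genes. The second Etv4 probe set, fitted on its own, was at 0.63 ± 0.38, so the 2 Etv4 probe sets disagreed in direction. Over 4 arrays with and 4 without ethanol, 0 of 8 genes were lower (4.45% of all genes) and 0 were higher (2.98%) without overlap. None passed the adjusted threshold, with adjusted p between 0.634 and 0.996, and none had an unadjusted p under 0.05, whereas 217 genes of all (1.99%) and 1177 did. On the same arrays all 14 tested G2/M and mitosis genes fell, with a median of −3.42, Prc1, Nusap1, Tpx2 and Kif11 by the most (−3.58, −3.58, −3.57 and −3.53). Of the 22 other ERK response genes 1 fell after adjustment, the cyclin D1 gene Ccnd1, and 0 rose. Only 4 of these 22 estimates were below 0, and the median of the list was 0.24. Of the other ERK feedback, cascade and receptor lists 0 rose and 0 fell, with medians of −0.01, 0.14 and 0.17. Without the doubted arrays the 8 estimates ran from −0.36 for Etv4 to 0.47 for Spry4, with 5 above 0 and a median of 0.21. In that fit 0 of all genes passed, G2/M genes and Ccnd1 included, and the G2/M median was −2.94 (1139 genes had an unadjusted p under 0.05, 0 of the 8 among them).

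Of the probe sets of these genes, 1 passed in the ethanol average when each was fitted on its own. In that fit, the Spred1 probe set of lowest mean signal above the filter had signals of 82.5, 130.49, 65.6 and 64.7 without ethanol and 207, 210.41, 264 and 238 with ethanol. All 4 ethanol arrays were above all 4 others, an order met by 3.31% of 20967 probe sets. It rose by 1.25 ± 0.24 on the log2 scale, with an adjusted p of 0.0362 by limma, in a fit where 301 probe sets (1.44%) passed. The other 6 Spred1 probe sets above the filter gave values between −0.19 and 0.22 in the same fit and none passed, so the probe sets of Spred1 disagreed. Its mean signal over the 8 arrays was 158, and no level of another probe set can be read against it. With 1 array left out in turn the estimate stayed between 1.11 and 1.38, but the adjusted p ran from 0.0308 to 0.168 and passed in 1 of 8 fits, without FGF2 replicate 2. Without both doubted arrays it was 1.22, with an adjusted p of 0.298.

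**Figure D5:**
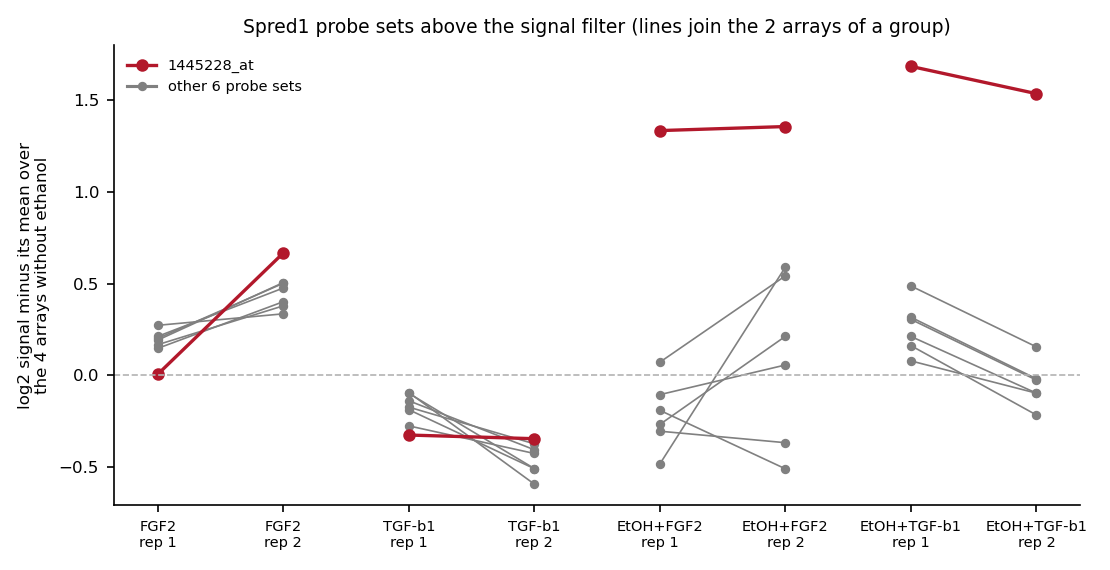
Log2 signal of the 7 Spred1 probe sets above the filter on each array, relative to each probe set's mean over the 4 arrays without ethanol (rep, replicate; TGF-b1, TGF-beta1; EtOH, ethanol; lines join arrays of a group). The probe set of lowest signal (red) is above all its values without ethanol on the 4 ethanol arrays, where its signal was 207 to 264, and the other 6 (grey) lie on both sides of 0 in the ethanol groups.

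Genes with the most similar profile were sought for the 3 tested members with the widest range over the 8 arrays, as the smallest root mean square difference of centred log2 signals among 10908 genes. Spry4, with a range of 2.73, was nearest to Inka2, which encodes an inhibitor of the kinase PAK4, at 0.365, and to Efhd2, a calcium-binding protein gene, at 0.387. Inka2 had signals of 386 and 605 in FGF2, 189.53 and 118 in TGF-beta1, 82.2 and 301 in Ethanol and FGF2, and 318 and 174 in Ethanol and TGF-beta1. Dusp6, with a range of 1.82, was nearest to Klf9, a zinc finger transcription factor gene, at 0.217, and to the cytoskeletal Septin9 at 0.226. Klf9 was lowest, at 526, on replicate 1 of Ethanol and FGF2 and highest, at 1377, on FGF2 replicate 2, as Dusp6 was. Etv4, with a range of 1.76, was nearest to Nrarp, a feedback regulator of Notch signalling, at 0.224, and to the fatty acid elongase gene Elovl2 at 0.257. Nrarp had signals of 2203 and 5055 in FGF2 against 4672 and 2838 in TGF-beta1, with the same overlap as Etv4. These are descriptions over 8 arrays.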

How the data were processed

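The authors deposited a linear signal intensity for every probe set on each array, made with MAS5 and GCOS, per the submitters' processing notes; versions are not given in the sources used here. Of 45101 probe sets 34945 had 1 symbol, 932 had several, 9160 had none and 64 were controls. Signals were taken as log2(signal + 23.66), the 25th percentile of all signals, which understates changes of low genes; no further normalization was applied. A gene was represented by its probe set of highest mean, and 10916 of 18193 genes at or above the 40th percentile (6.402) were tested. A model of 4 group means over 8 arrays (4 residual and 4.929 prior degrees of freedom) was fitted in R 4.3.3 with limma (version 3.58.1) using a trended prior, two-sided p-values and Benjamini-Hochberg adjustment over all genes within each of 6 comparisons, at a threshold of 0.05. The code was tested on simulated data. The feedback genes and the lists were chosen with earlier results of these data known. By rule all feedback genes were named, and of each other list up to 4 past the threshold by size in a comparison, or else that of highest signal. Syt1, Elavl3, Tubb3 and the values of Dcx without ethanol were added after they were seen. Positions and promoters are from RefSeq, GRCm38.p6. Alternatives were other added constants (100 and 1), filters (none and the 60th percentile), quantile normalization, other handling of probe sets, no trend, a replicate block and left-out arrays.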

Additional observations from a re-analysis of the deposited data

How the results depend on the processing

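None of the feedback genes passed the adjusted threshold in any of the 6 comparisons under any alternative but 1: with each probe set fitted on its own, 1 gene was called in the ethanol average, through the Spred1 probe set of lowest signal above the filter. That value was 0.84 (adjusted p = 0.0325) with a constant of 100, 1.18 (0.0414) with quantile normalization and 1.25 without a filter (0.0814), and the probe set fell under the filter at the 60th percentile. With the replicate block 0 feedback genes were called in every comparison, and this probe set was at 1.25 (adjusted p = 0.0638). The labels do not say that equal replicate numbers share a batch. Over all genes the replicate block gave 0 calls in place of 130 for ethanol within TGF-beta1, and 179 in place of 217 for the average. The count of 7 genes lower in TGF-beta1 without overlap was 8 of 9 without a filter (15.4% of all genes), 6 of 6 with the filter at the 60th percentile (17.7%), and 7 to 8 of 8 with an array left out, where the share of all genes was 27.2% to 36.7%. Signs differed from the values given in 3 of 150 estimates for TGF-beta1 against FGF2 without ethanol, all of Etv4, but in 22 of 142 with ethanol, 16 for ethanol in FGF2 cultures, 5 for ethanol in TGF-beta1 cultures, 19 for the ethanol average and 9 for the interaction. Over all genes, ethanol within FGF2 gave 0 calls, 29 without a filter or with quantile normalization, and 0 to 77 with an array left out; within TGF-beta1 130 calls became 75 with the stricter filter and 0 to 162 with an array left out, and without both doubted arrays 0 genes were called there or in the average. The causes were not tested. Alternatives for this probe set, for the order without overlap and for the arrays without ethanol alone were chosen after seeing the data. Low signals limit Dusp4 and the weaker probe sets.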
